A study of Mus musculus with 2 samples.

Results

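The cells described here were the differentiated *Isl1*-positive retinal ganglion cells of the embryonic mouse retina at E14.5. They were taken from the cells that lacked the *LHX4::GFP* reporter signal, and were chosen on their own transcript counts. A cell was a member if it held at least 4 unique molecular identifier (UMI) counts of *Sncg*, *Nefl* and *Rbpms* added together, at least 3 of *Isl1* and none of *Tfap2b*, with a mitochondrial fraction under 0.25. This rule found 708 of 4444 cells, or 15.9% (95% exact Clopper-Pearson interval 14.9 to 17.0%), and 8172 cells of both libraries passed the same mitochondrial limit. Because *Sncg*, *Nefl*, *Rbpms*, *Isl1* and *Tfap2b* chose the members, their values are given only as a description.

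The reporter strain was Tg(Lhx4::EGFP)KN199Gsat/Mmucd, in which regulatory sequence of *Lhx4*, a cone and bipolar cell factor, drives GFP from a bacterial artificial chromosome. Retinas of heterozygous GFP-positive embryos from 2 litters were pooled into 1 suspension and sorted by flow cytometry into GFP+ and GFP- cells, and each gate gave 1 droplet library of 3′ transcript ends (10x Chromium, version 2). Both gates therefore carried the same genotype and age and received no other treatment, and the embryo that each cell came from was not marked. With 1 library per gate, no test between samples was possible: all intervals cover counting error only, and a gene "past 2-fold" is described by size alone.

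Retinal ganglion cells are the projection neurons of the retina and are among the earliest neurons it makes. A progenitor that leaves the cell cycle switches on *Atoh7*, then the POU factor *Pou4f2* and the LIM-homeodomain factor *Isl1*, which together activate genes for axon growth and neuronal function. Later the cells diversify into many types that differ in factors such as *Pou4f1*, *Pou4f3*, *Isl2*, *Eomes* and the *Irx* and *Tbx* families.

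Members were deeper than the other cells of the GFP- library. Their 10304956 UMIs were spread over cells with a median of 14095.5 UMIs (lowest 3534, highest 34593) and 3701.5 genes, while the 3736 other cells had medians of 9252 UMIs and 2881 genes. The deposited study limited cells to 3500 genes. No upper gene limit was applied here, and 490 members (69.2%) lay above that limit against 15.1% of the other cells. Scrublet, which scores barcodes against simulated doublets, called 26 members (3.67%) and 34 other cells (0.910%). At least 20 UMIs of the progenitor genes *Sfrp2*, *Fgf15* and *Ccnd1* together were found in 27 members, and 20 of these were among the Scrublet calls. The GFP+ and GFP- libraries shared 20 cell barcodes, of which 3 belonged to members.

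**Figure D1:**
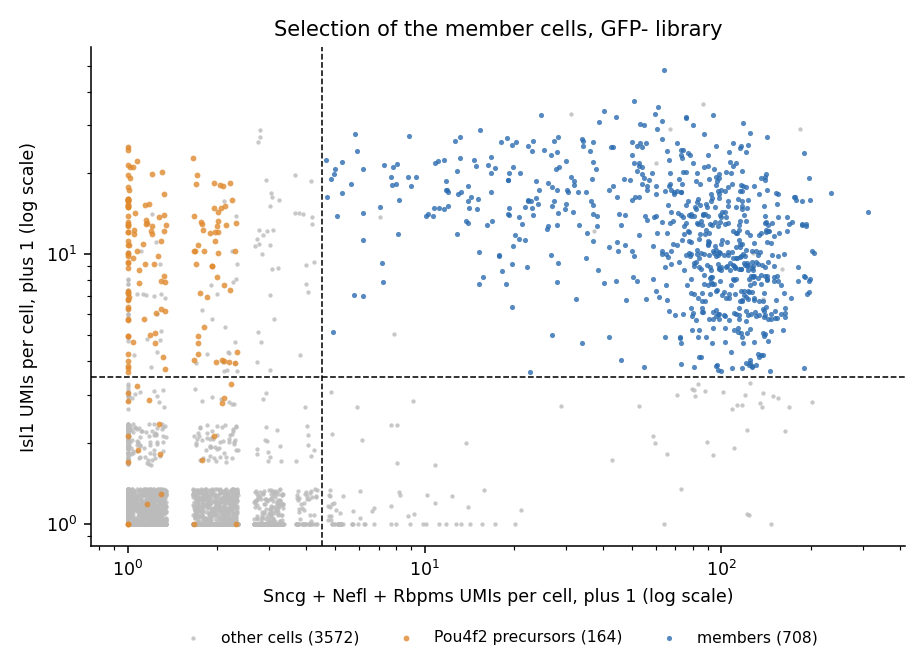
Each point is a cell of the GFP- library, placed by its summed *Sncg*, *Nefl* and *Rbpms* UMIs (x axis) and its *Isl1* UMIs (y axis), both plus 1 on log scales with a small random shift, and dashed lines mark the limits of the rule. The 708 members lie to the upper right around a median sum of 86, and the 164 *Pou4f2* precursors lie at a sum of 0 or 1.

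The members held a median of 55 *Sncg* UMIs (range 0 to 221), 21 of *Nefl*, 3 of *Rbpms* and 11 of *Isl1* (range 3 to 47). *Sncg* encodes gamma-synuclein, *Nefl* the neurofilament light chain and *Rbpms* an RNA-binding protein used as a pan-ganglion cell marker. All 3 were present in 587 members, and 674 members had a sum of at least 10. At the *Sncg*, *Nefl* and *Rbpms* limit, 9 members had a sum of exactly 4 and 8 a sum of 5, whereas 226 cells that met the other limits fell below it, 11 with a sum of 3, 22 with 2, 67 with 1 and 126 with 0. At the *Isl1* limit, 27 members had exactly 3 UMIs and 31 had 4, while 21 cells just outside had 2, 9 had 1 and 16 had none. A further 13 cells were left out only because of *Tfap2b*, an amacrine and horizontal cell factor, 10 of them for a single UMI.

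Other markers of ganglion cells, which the rule did not use, were present. Levels are given as UMI counts per 1000000 UMIs, summed over a class of cells (CPM), and compare classes for the same gene. *Gap43*, a growth cone protein, stood at 3994 CPM in the members against 151 CPM in the other cells, 26.5 times higher (95% exact conditional Poisson interval 25.7 to 27.2). *Ebf1*, a transcription factor of differentiating ganglion cells, stood at 1185 against 59.6 CPM. *Slc17a6*, the vesicular glutamate transporter of ganglion cells, stood at 30.0 against 1.07 CPM. The surface marker *Thy1* had only 2 UMIs in all members together. The label of the cells was thus matched by these markers other than *Thy1*.

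The promoters of genes that carry the description are shown here. *Isl1*, *Pou4f2* and *Ccer2* were lower together in the members with the largest share of *Sncg*, *Nefl* and *Rbpms*. Sequences are RefSeq windows on GRCm38.p6, read 5′ to 3′ on the gene's strand from 250 bases upstream of the start site to 50 bases into the transcribed gene, and capitals mark the motif matches found in them.
Isl1 promoter, chr13:116309639-116309938, minus strand: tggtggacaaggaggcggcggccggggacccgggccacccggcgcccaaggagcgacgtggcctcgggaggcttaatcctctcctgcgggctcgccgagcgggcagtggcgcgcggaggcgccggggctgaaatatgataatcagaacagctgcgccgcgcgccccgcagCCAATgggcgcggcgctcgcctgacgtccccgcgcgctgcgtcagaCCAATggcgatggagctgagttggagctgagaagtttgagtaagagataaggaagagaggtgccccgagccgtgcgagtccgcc
Pou4f2 promoter, chr8:78436598-78436897, minus strand: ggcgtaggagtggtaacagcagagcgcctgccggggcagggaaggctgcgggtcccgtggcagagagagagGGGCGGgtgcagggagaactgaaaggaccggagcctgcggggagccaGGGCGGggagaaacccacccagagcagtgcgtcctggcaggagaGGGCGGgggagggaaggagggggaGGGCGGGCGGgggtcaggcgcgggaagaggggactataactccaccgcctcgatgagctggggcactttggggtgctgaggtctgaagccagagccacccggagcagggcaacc
Ccer2 promoter, chr7:28755924-28756223, plus strand: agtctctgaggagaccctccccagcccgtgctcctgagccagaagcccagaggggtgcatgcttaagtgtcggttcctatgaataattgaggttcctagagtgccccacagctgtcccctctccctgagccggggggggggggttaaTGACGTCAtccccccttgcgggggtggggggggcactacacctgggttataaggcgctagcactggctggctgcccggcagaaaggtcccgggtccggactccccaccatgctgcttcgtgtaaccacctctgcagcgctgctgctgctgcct
Sncg promoter, chr14:34374620-34374919, minus strand: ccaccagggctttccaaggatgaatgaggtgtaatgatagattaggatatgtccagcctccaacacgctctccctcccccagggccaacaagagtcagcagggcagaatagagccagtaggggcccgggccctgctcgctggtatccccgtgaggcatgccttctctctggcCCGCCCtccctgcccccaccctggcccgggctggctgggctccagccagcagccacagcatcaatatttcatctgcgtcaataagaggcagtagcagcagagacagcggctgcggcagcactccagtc
The motifs searched, on both strands, were TAATTA (homeodomain core), TGACGTCA (cyclic AMP response element), TATAAA (the TATA box), then CCAAT, and GGGCGG (GC box). The *Isl1* window held 2 CCAAT matches, the *Pou4f2* window 5 GGGCGG matches with the last pair overlapping, the *Ccer2* window 1 TGACGTCA match and the *Sncg* window 1 GGGCGG match on the opposite strand. Among 27025 promoter windows of the same length, 37.9% held CCAAT, 35.9% GGGCGG, 14.2% TATAAA, 5.31% TAATTA and 1.88% TGACGTCA. A match describes the letters of the window and is not evidence of a bound site.

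Against all other cells of the GFP- library, which included progenitors, precursors and the ganglion cells outside the limits, the genes highest in the members included axon growth, peptide and sodium channel genes. Of 3386 genes that reached 50 CPM in either class, 570 (16.8%) were more than 2-fold higher in the members and 421 (12.4%) more than 2-fold lower, with a median log2 ratio of 0.01. Among the genes with the highest ratios was *Ccer2*, which encodes a secreted coiled-coil protein, at 180 against 3.26 CPM and 55.0 times higher (45.7 to 66.8). The neuropeptide gene *Sst* (somatostatin) stood at 150 against 4.61 CPM, and *Adcyap1*, which encodes the peptide PACAP, at 50.8 against 1.43 CPM. *Nrn1* (neuritin, a neurite growth factor) stood at 169 against 5.62 CPM and *Nrp1*, a semaphorin receptor of axons, at 108 against 3.70 CPM. Also among the 15 highest were *Vstm2l*, *Mstn*, *Cda*, *Ecel1*, *Scn9a*, *Syt13*, *Ppp2r2c*, *Snhg11* and *Gap43*, of which *Scn9a* encodes a voltage-gated sodium channel.

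The genes with the lowest ratios included globins, a Notch target and factors of other retinal fates. The globin genes *Hba-a1* and *Hbb-bs* stood at 0.970 and 1.16 CPM in the members against 185 and 191 CPM in the other cells, and *Hbb-bt* had no UMI in the members, a level at least 223-fold lower against a floor of 3 counts over the class. *Ptf1a*, the factor that directs amacrine and horizontal cell fate, was 96.8-fold lower at 0.582 against 56.3 CPM. The rule had left *Tfap2b* cells out of the members only, and the part of that choice in this value was not tested. The Notch target *Hes1* was 23.4-fold lower at 17.5 against 409 CPM. *Dtl*, *Espn*, *2810417H13Rik* and *Ube2c* were also among the 10 lowest.

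**Figure D2:**
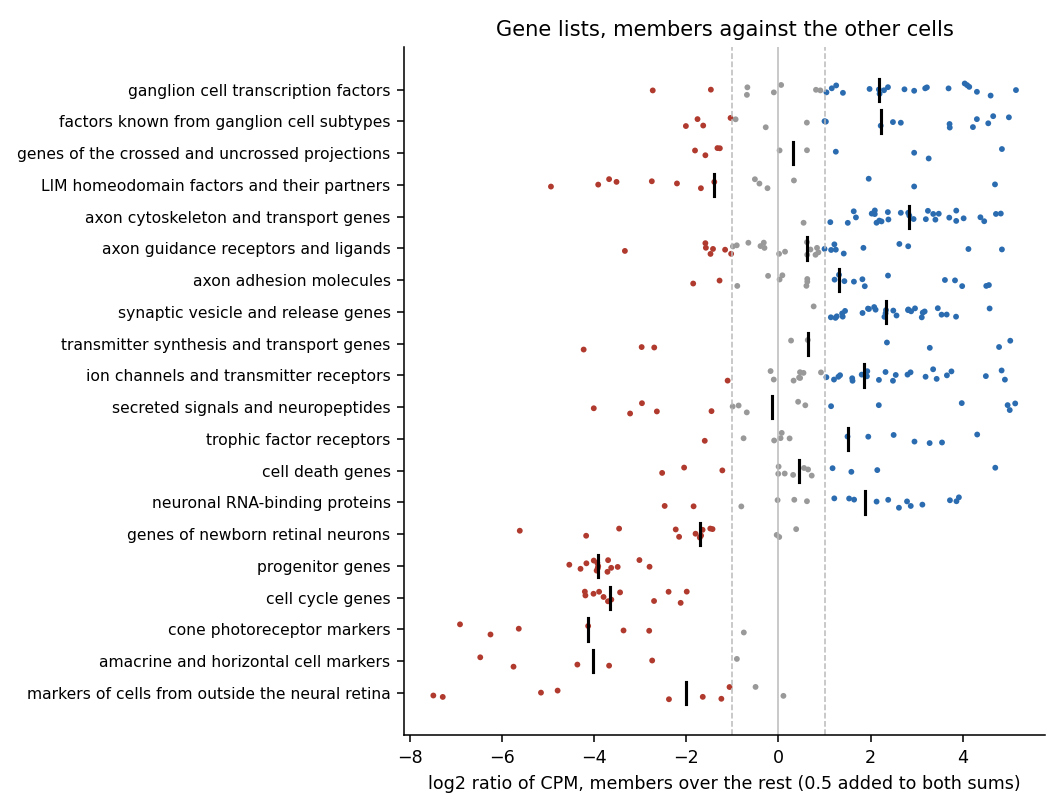
Each point is a gene with at least 10 UMIs, placed by its log2 ratio of CPM in the members over the other cells (x axis) on the row of its list, with a black bar at the list's median, dashed lines at a 2-fold difference, and blue and red for genes past it. The axon cytoskeleton and synaptic release lists lie to the right of 0, and the progenitor and cell cycle lists wholly to the left.

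The gene lists cover the roles of these cells, and were read against all 14979 genes with at least 10 UMIs over both classes, of which 15.8% were more than 2-fold higher in the members and 22.1% more than 2-fold lower, with a median log2 ratio of -0.14. Of 28 ganglion cell transcription factors, 20 were past 2-fold higher and 2 lower, with a median log2 ratio of 2.19. Summed over the list, the level was 6593 CPM in the members and 1830 CPM in the other cells. Among those other cells, 287 cells marked by *Tfap2b* stood at 7342 CPM, above the members. *Ebf1* is given above. *Klf7*, a zinc-finger factor that promotes axon growth, stood at 589 against 63.0 CPM, and *Pou4f1* at 194 against 7.92 CPM. *Isl2*, a LIM factor of contralaterally projecting cells, stood at 31.0 CPM, 7.73 times higher than in the other cells, and *Pou4f2* differed less, at 138 against 30.2 CPM. Among 19 factors of ganglion cell types, 12 were higher and 4 lower (median 2.22). The higher ones included *Irx2* at 157 against 11.9 CPM, *Irx3* at 85.2 against 3.35 and *Irx5* at 102 against 4.30. *Eomes*, a T-box factor needed by a subset of ganglion cells, stood at 26.0 against 4.63 CPM. Of 15 LIM homeodomain factors and partners, 3 were higher and 8 lower (median -1.40). The 3 higher included *Lmo2*, a LIM-domain cofactor, at 96.8 against 3.70 CPM. Of 10 genes linked to crossed or uncrossed projection, 4 were higher and 4 lower (median 0.32).

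Nearly every gene on the list of the axon cytoskeleton was higher in the members. Of 30 axon cytoskeleton and transport genes, 29 were past 2-fold higher and none lower, with a median log2 ratio of 2.83. Summed, these genes stood at 82293 CPM in the members and 16690 CPM in the other cells. In the 287 *Tfap2b* cells among the other cells the sum was 43514 CPM. *Mapt*, which encodes the axonal microtubule protein tau, stood at 640 against 28.9 CPM, and *Stmn2*, a tubulin-binding growth cone protein, at 4579 against 410 CPM. Tubulin alpha 1a (*Tuba1a*) stood at 15516 against 3287 CPM. Of 21 cell adhesion genes 12 were higher and 2 lower (median 1.31), including *Islr2*, an axon guidance and adhesion protein, at 501 against 21.9 CPM and *Cntn2* (contactin 2) at 167 against 6.99 CPM. The 31 guidance receptors and ligands were mixed, with 10 higher, 7 lower and a median of 0.62. *Dcc*, the netrin receptor, stood at 12.6 against 11.5 CPM, and *Epha3*, a receptor of the ephrin map, was lower at 1.55 against 16.2 CPM.

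Genes of release and excitability were already present at this age. Of 29 vesicle release genes, 28 were past 2-fold higher and none lower (median 2.34), among them *Snap25*, a protein of the vesicle fusion machinery, at 217 against 24.0 CPM. Summed, the release genes stood at 3713 CPM in the members and 679 CPM in the other cells. The 287 *Tfap2b* cells among the other cells held 2585 CPM of them. Of 32 channel and receptor genes 23 were higher and 1 lower (median 1.86), and the sodium channel gene *Scn3a* stood at 81.0 against 5.98 CPM. The summed channel and receptor genes stood at 741 CPM in the members, 179 CPM in the other cells and 564 CPM in the *Tfap2b* cells. Of 9 transmitter genes 4 were higher and 3 lower (2 with the gene at 0 set at the floor; median 0.64). *Th*, the enzyme that makes dopamine precursors, was among those higher, at 13.0 against 0.384 CPM. Of 16 secreted signals 6 were higher and 5 lower (median -0.13), with *Shh*, the ganglion cell mitogen for progenitors, at 3.20 against 0.192 CPM.

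Of 13 trophic receptors and related genes 7 were higher and 1 lower (median 1.50). *Ret*, the receptor of glial-derived neurotrophic ligands, stood at 41.2 against 2.06 CPM. Of 14 apoptosis genes 4 were higher and 3 lower (median 0.44). *Bbc3*, a pro-death BCL2-family member, stood at 102 against 23.1 CPM, and the 3 lower genes were the survival gene *Bcl2*, at 9.80 against 56.8 CPM, and the pro-death genes *Bcl2l11*, at 4.85 against 20.3 CPM, and *Bak1*, at 10.8 against 25.2 CPM. The survival gene *Bcl2l1* stood at 78.2 against 47.4 CPM. Of 18 neuronal RNA-binding and splicing genes 12 were higher and 2 lower (median 1.89), and the splicing repressor *Ptbp1* was lower at 22.3 against 124 CPM. The summed RNA-binding and splicing genes stood at 3377 CPM in the members, 931 CPM in the other cells and 2888 CPM in the *Tfap2b* cells.

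Most markers of other cells were lower in the members than in the rest of the library. Of 14 genes of newborn neurons, none was past 2-fold higher and 11 were lower (median -1.70). These genes were not absent, as they summed to 916 CPM in the members, 2260 CPM in the other cells and 699 CPM in the progenitors defined next. *Hes6* stood at 243 against 657 CPM in the other cells and *Cdkn1c* at 293 against 224 CPM. All 14 progenitor genes were lower (median -3.92), at 2.90 to 15.2% of their level in the 1927 progenitors (cells with at least 8 UMIs of a set of progenitor genes that included *Sfrp2* and *Hes1*, and few of the ganglion cell genes), with a median of 5.20%. All 12 cell cycle genes were lower (median -3.67). Of 7 cone genes 6 were lower, with a summed 11.1 against 141 CPM and *Pdc* without a UMI, and the median of -4.14 became -3.67 with *Pdc* set at its floor. Of 6 amacrine and horizontal cell genes 5 were lower (median -4.03, summed 9.90 against 105 CPM). The rule kept *Tfap2b* cells out of the members and left them in the other cells. In the *Tfap2b* cells these genes summed to 987 CPM, and the part of that choice in the difference was not tested. Of 10 markers of cells from outside the neural retina, such as blood, microglia and pigment epithelium, 8 were lower (median -2.01, summed 6.02 against 414 CPM). *C1qa* held the most UMIs. The 2 within 2-fold were pigment epithelium genes, *Pmel* at 0.194 against 0.329 CPM and *Dct* at 0.291 against 0.302 CPM. *Tyr* and the lens gene *Cryaa* had no UMI in the members and too few over both classes to be counted. The part of such transcripts in the remaining members' values was not tested.

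A class of 164 cells of the same library, called precursors here, served as a further comparison. They had at least 2 *Pou4f2* UMIs, at most 1 UMI of *Sncg*, *Nefl* and *Rbpms* together and none of *Tfap2b*. Whether they were an earlier stage of the members was not tested. The precursors had a median depth of 9904 UMIs and 2977 genes. Of 3216 genes that reached 50 CPM in either class, 345 (10.7%) were past 2-fold higher in the members and 158 (4.91%) lower, with a median log2 ratio of -0.06. The rule for the precursors used *Pou4f2*, whose level of 138 CPM in the members against 436 CPM, 3.15-fold lower, is therefore a description. *Isl1*, which the rule required of the members only, stood at 842 against 894 CPM, likewise a description. The neuronal tubulin *Tubb3* stood at 6451 against 5817 CPM.

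Neuronal intermediate filament genes and *Gap43* were higher in the members than in the precursors. The rules set these classes apart by their *Sncg*, *Nefl* and *Rbpms* counts. The part of that choice in the values below was not tested. The intermediate filament genes *Ina* and *Nefm* stood at 1545 and 1140 CPM against 46.0 and 46.6 CPM, 33.6 and 24.5 times higher, and *Gap43* was 10.6 times higher at 3994 against 376 CPM. The other axon cytoskeleton genes ranged widely, with log2 ratios of 4.76 for *Mapt* and 3.92 for *Dcx* (doublecortin, a microtubule protein of young neurons) against 1.50 for *Stmn2*, 0.43 for *Map1b* and 0.16 for *Marcksl1*. *Calb2*, the calcium-binding protein calretinin, stood at 153 CPM against 0.597 CPM, which was a single UMI, for a ratio of 257 (46.0 to 10143). Several genes had no UMI in the precursors, which allows only a lower bound against a floor of 3 counts: *Ppp2r2b*, a phosphatase subunit, was at least 42.7-fold higher, the actin-binding *Klhl1* at least 28.9-fold, *Slc17a6* at least 16.7-fold, *Irx4* at least 11.5-fold and *Pou4f3* at least 10.7-fold. *Pou4f1* stood at 194 against 11.4 CPM and *Ebf1* at 1185 against 235 CPM.

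The genes lower in the members than in the precursors included a growth arrest gene and early fate factors. *Gadd45a*, a growth arrest gene, was 15.1-fold lower at 107 against 1619 CPM, and *Dqx1* was 44.4-fold lower, a value carried by 9 of 164 precursors that held its UMIs. *Sp8*, a zinc-finger factor, was 17.8-fold lower, and *Dlx2* and *Dlx1*, homeodomain factors of early ganglion and interneuron fate, were 12.2-fold and 7.92-fold lower. *Atoh7*, the factor that makes progenitors competent for ganglion cell fate, stood at 37.9 against 284 CPM, and *Mfng*, a modifier of Notch receptors, at 78.8 against 398 CPM. *Gad2*, an enzyme of GABA synthesis, stood at 24.6 against 94.4 CPM. *Rgs16*, *Insm2*, *Btbd17*, *Shisa2*, *Mdk* and *Mfap4* were the other genes among the 10 lowest.

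Over all 12595 genes with at least 10 UMIs across the members and precursors, 14.7% were past 2-fold higher in the members and 10.2% lower. Against that background, 25 of 30 cytoskeleton genes and 23 of 29 release genes were higher and none lower. When genes without a UMI in a class were set at the floor of 3 counts, the counts higher were 24 and 23 and the medians 1.59 and 1.63. Of 29 channel and receptor genes 18 were higher and 1 lower, but 8 of the 29 had no UMI in the precursors, and at the floor 14 were higher and the median of 2.36 became 0.96. Of 14 newborn neuron genes none was higher and 8 were lower (median -1.51). Of 14 progenitor genes none was higher and 6 were lower (median -0.51). Of 28 ganglion cell factors 15 were higher (14 at the floor) and 5 lower, and 1 of the 5 was *Pou4f2*, which had selected the precursors. Both rules also used *Sncg*, *Nefl* and *Rbpms*, and the part of that choice in these counts was not tested.

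**Figure D3:**
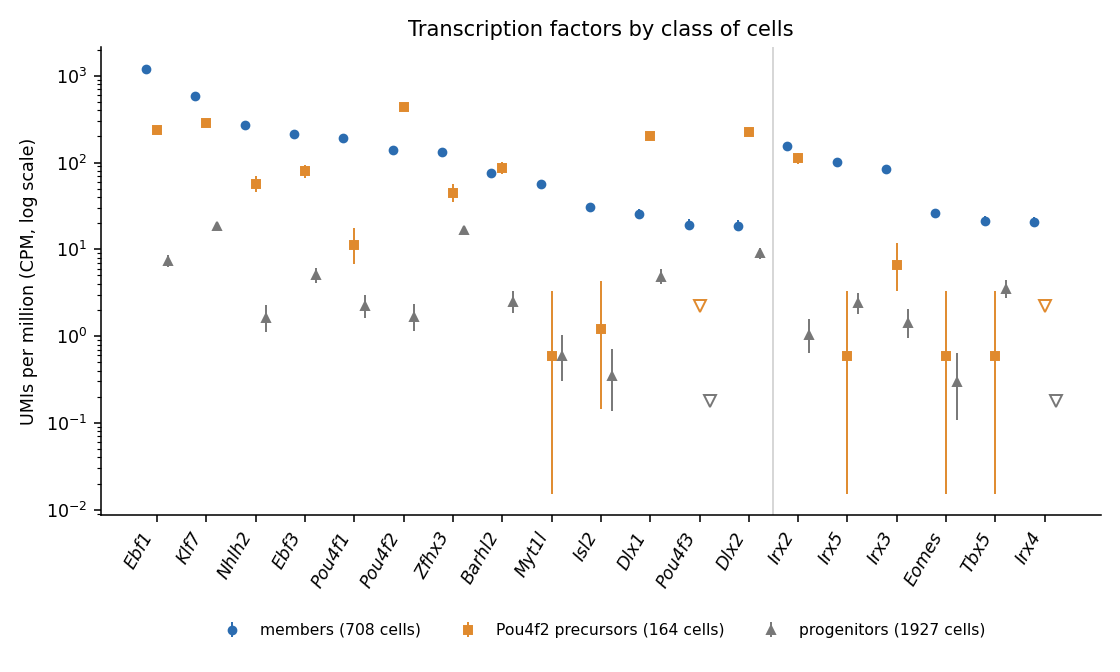
The plot gives the CPM (y axis, log scale) of 19 transcription factors in the members, *Pou4f2* precursors and progenitors, with exact 95% Poisson intervals as bars and open triangles for the upper limit where a class had no UMI. *Pou4f2*, *Dlx1* and *Dlx2* stand higher in the precursors than in the members, whereas *Pou4f1*, *Irx5* and *Eomes* stand higher in the members.

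Shares of cells were compared at equal depth, since the classes differed in UMIs per cell. After thinning to 5000 UMIs, 706 members remained and 2 shallower ones were left out, beside 162 precursors (2 left out) and 1892 progenitors (35 left out). The unthinned median depths were 14095.5, 9904 and 10089 UMIs. Progenitors give a rough background from free RNA in the droplets. They were chosen to hold few of the ganglion cell genes, so this background may be too low. Where progenitors express a gene themselves, as may hold for *Tbx5*, their share is not free RNA, and this was not tested. *Pou4f1* was found in 353 of 706 members (46.2 to 53.8%; 70.5% of members unthinned), 5.56% of precursors and 0.951% of progenitors. *Pou4f2* was found in 42.5% of members (38.8 to 46.2%; 70.3% unthinned), 91.4% of precursors, which it had selected, and 0.740% of progenitors. *Pou4f3*, the POU factor of fewer ganglion cells, was found in 6.80% of members and in no precursor or progenitor (exact upper limits 2.25% and 0.195%). *Isl2* was found in 11.9% (24.2% of members unthinned), 1.23% and 0.317%.

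These shares follow the level of a gene and the depth as well as the cells that express it. They do not by themselves separate broad from restricted factors. *Ebf1* was found in 98.9% of members and 3.28% of progenitors, and *Klf7* in 93.5% and 8.14%. Among peptide genes, *Gal* (galanin) was found in 62.3% of members and 5.23% of progenitors, *Sst* in 141 of 706 members and 0.370% of progenitors, and *Adcyap1* in 22.9% and 0.106%. *Ccer2* was found in 33.7% of members and 0.264% of progenitors. Of the *Irx* homeobox genes, *Irx2* was found in 49.9% of members and 0.476% of progenitors, *Irx5* in 27.3% and 1.16%, *Irx3* in 22.5% and 0.899%, and *Irx6* in 10.1% and 0.159%. *Irx4* was found in 7.08% of members and in none of 1892 progenitors (exact upper limit 0.195%). Unthinned, the shares of members were 80.4% for *Irx2*, 46.0% for *Irx5*, 41.8% for *Irx3*, 25.8% for *Irx6* and 18.6% for *Irx4*. That of *Adcyap1* was 45.2%. The T-box genes *Eomes* and *Tbx5* were found in 6.09% and 5.81% of members (8.76% and 10.3% unthinned), against 0.159% and 1.80% of progenitors. The progenitor gene *Sfrp2* was found in 24.2% of members (48.9% unthinned) against 98.0% of progenitors. The part of free RNA or doublets in the share of members was not tested.

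The members differed in the combinations of factors that were detected. Thinned to 8000 UMIs, 699 members remained, of which 420 had a *Pou4f1* UMI and 397 a *Pou4f2* UMI. Both were found in 222 cells, *Pou4f1* alone in 198, *Pou4f2* alone in 175 and neither in 104. *Pou4f1* was found in 55.9% of the *Pou4f2* cells against 65.6% of the others. The part of sparse detection in this split was not tested. Of 53 members with a *Pou4f3* UMI, 49 also had *Pou4f1* (92.5%), against 57.4% of the members without it. At least 1 of the POU4 genes was found in 596 members, all 3 in 8 and none in 103. *Irx3* and *Irx5*, neighbouring genes of 1 cluster, were found together in 168 members, and 63.9% of the *Irx5* cells had *Irx3* against 14.9% of the others. *Lmo2* was found in 47 of 56 *Eomes* cells (83.9%) against 18.8% of the others, and *Tbx2* in 24 of 54 *Tbx5* cells (44.4%) against 8.84% of the others. *Zic2*, the factor of uncrossed axons, was found in 40 members and *Isl2* in 112, and both in 2, so that *Zic2* was found in 1.79% of the *Isl2* cells against 6.47% of the others. The pair also ran in opposite directions over the graded range of members described next, with *Zic2* at 16.3, 5.67 and 1.40 CPM and *Isl2* at 9.70, 37.4 and 43.6 CPM from its low to its high group, and the part of that range in their overlap was not tested. The genes of the pairs found together were all higher at the high end of that range. From the low to the high group, *Eomes* ran from 0.939 to 39.7 CPM and *Lmo2* from 13.1 to 158 CPM. *Irx3* ran from 16.6 to 135 CPM and *Pou4f3* from 1.88 to 35.2 CPM. The part of the range in these pairs was not tested. *Gal* was found at nearly the same share in the 156 cells with *Sst* (69.9%) and in those without (66.9%). In sparse counts a missing UMI does not show that a gene was silent.

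The members also formed a graded range. They were ranked by the share of *Sncg*, *Nefl* and *Rbpms* among their UMIs and divided into 3 groups of 236 cells, a division chosen after their values had been seen. The low, middle and high groups had median shares of 19.7, 60.5 and 84.0 per 10000 UMIs, median depths of 12923, 14456.5 and 14775.5 UMIs and 3510, 3762.5 and 3806 genes. Of 3119 genes at 50 CPM or more in the low or high group, 145 (4.65%) were past 2-fold higher in the high group and 97 (3.11%) lower. Because the groups come from the same library and the ranking used measured genes, these values are descriptions. The choice of ranking genes mattered: ranked by *Nefl* and *Rbpms* alone, without the abundant *Sncg*, 83 genes were past 2-fold in place of 242.

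*Isl1*, *Pou4f2* and early genes ran against the share of *Sncg*, *Nefl* and *Rbpms*. *Isl1* had also chosen the members, so its values are a description. Whether the share follows differentiation was not tested. *Isl1* stood at 1208, 768 and 589 CPM in the low, middle and high groups, a 2.05-fold lower level at the high end, and its median per cell was 16, 10 and 8 UMIs. *Pou4f2* stood at 264, 96.6 and 67.3 CPM, 3.92-fold lower. *Ccer2* was 12.3-fold lower, at 400, 129 and 32.7 CPM. *Mfng* stood at 204, 35.7 and 9.22 CPM, *Atoh7* at 92.0, 23.0 and 4.47 CPM and *Nhlh1*, a neuronal helix-loop-helix factor, at 56.3, 13.9 and 1.96 CPM. Each of these was lower in the middle than in the low group, and lower again in the high group. Ranked by *Nefl* and *Rbpms* alone, the log2 ratio of the high over the low group kept its sign and became smaller, from -1.04 to -0.54 for *Isl1*, from -1.97 to -1.58 for *Pou4f2*, from -3.61 to -1.66 for *Ccer2* and from -4.45 to -2.58 for *Mfng*.

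Other factors and receptors were highest in the high group. *Pou4f1* stood at 124, 208 and 242 CPM, 1.95 times higher (1.73 to 2.20), and *Pou4f3* at 1.88, 18.7 and 35.2 CPM. *Cnr1*, the cannabinoid receptor, stood at 4.69, 43.4 and 75.7 CPM, 16.1 times higher. *Lmo2* was 12.0 times higher, at 13.1, 111 and 158 CPM, and *Ly6h*, a modulator of nicotinic receptors, 9.33 times higher, at 41.0, 253 and 382 CPM. *Irx5* stood at 18.1, 120 and 159 CPM and *Isl2* at 9.70, 37.4 and 43.6 CPM. *Gap43* stood at 2474, 4548 and 4804 CPM. Under the ranking by *Nefl* and *Rbpms* alone, the log2 ratio of *Pou4f1* was nearly as large (0.94 in place of 0.96), while that of *Pou4f3* was 0.98 in place of 4.12, that of *Cnr1* 0.78 in place of 3.97, that of *Lmo2* 0.64 in place of 3.57 and that of *Ly6h* 0.74 in place of 3.22. Other factors were nearly level, as *Irx2* stood at 149, 156 and 166 CPM and *Klf7* at 599, 609 and 561 CPM.

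**Figure D4:**
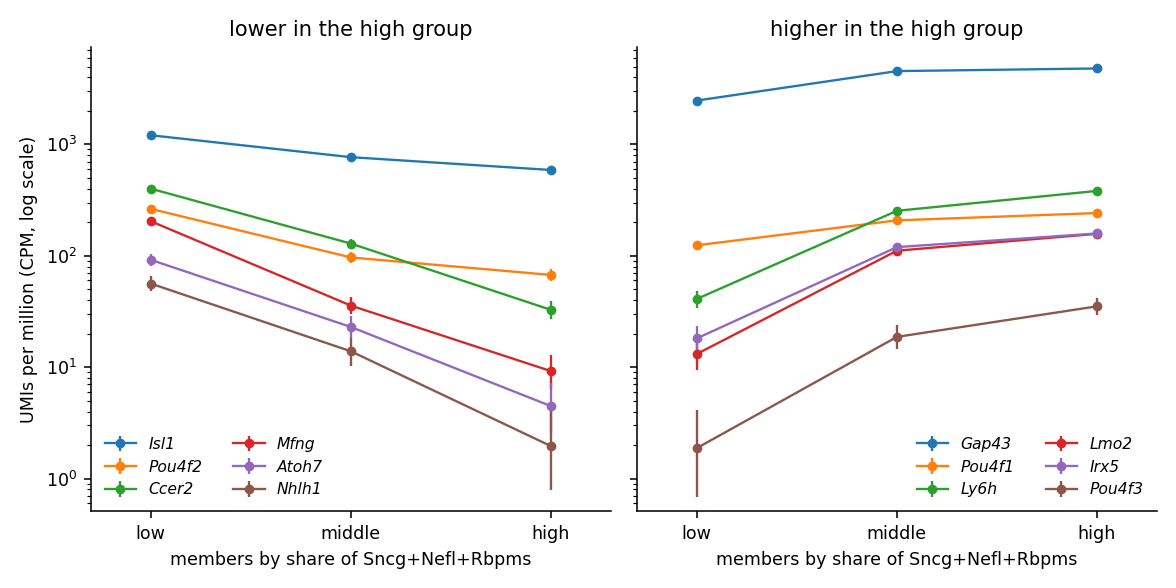
The plot gives the CPM (y axis, log scale, with exact 95% Poisson intervals) of 12 genes in the low, middle and high groups of 236 members, with genes lower in the high group on the left and higher ones on the right. *Isl1* runs from 1208 down to 589 CPM and *Mfng* from 204 to 9.22, while *Lmo2* runs from 13.1 up to 158 CPM.

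Over 11642 genes with at least 10 UMIs in the low and high groups, 8.49% were past 2-fold higher in the high group and 7.21% lower, with a median log2 ratio of -0.03. Of 12 newborn neuron genes, none was higher and 9 were lower (median -2.04), and of 14 progenitor genes 13 were lower (median -1.61). Summed progenitor genes stood at 796 CPM in the low group and 241 CPM in the high group, and their part in the other differences was not tested. Of 28 channel and receptor genes 15 were higher and 1 lower (median 1.24), and of 15 ganglion cell type factors 8 were higher and 1 lower (median 1.36). The 29 release genes included 11 higher and none lower (median 0.71), and the 29 cytoskeleton genes 6 higher and none lower (median 0.52). Other lists were mixed. Of 26 ganglion cell transcription factors 7 were higher and 6 lower, and of 18 RNA-binding genes 2 were higher and 1 lower. Of 9 LIM factors and partners 2 were higher and 3 lower, as were 2 and 3 of 8 projection genes.

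Genes were also ranked by their likeness to *Isl1* across single members. Over 699 members thinned to 8000 UMIs, Spearman correlations with *Isl1* were computed for 2320 genes and are given as a description only, since all cells share a library. The highest were *Ptma* (0.57), *Igfbpl1* (0.54), *Pou3f1* (0.49), *Rassf4* (0.48) and *Sox4* (0.47), and *Ccer2* reached 0.42 and *Mfng* 0.41. The lowest were *Ly6h* (-0.52), *Sncg* (-0.49), *Irx5* (-0.43) and *Cnih2* (-0.43). *Pou4f2* reached 0.30 and *Pou4f1* 0.00.

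Cells that met the ganglion cell limits with less *Isl1* were few. The 16 cells without an *Isl1* UMI were of mixed kind: 10 had a *Sncg*, *Nefl* and *Rbpms* sum under 10, of which 9 had at least 20 UMIs of *Sfrp2*, *Fgf15* and *Ccnd1*, and 6 had a sum of at least 10. Of 3299 genes, 298 (9.03%) were past 2-fold higher in the members than in these 16 cells and 327 (9.91%) lower. This balance was not stable, as 47.7% of the genes past 2-fold were higher in the members here, 64.1% with TMM scaling, which corrects for composition, and 28.5% with only the cells of a sum of at least 10, and the number past 2-fold ranged from 87 to 2360 over the alternatives. *Ccer2*, *Plk3*, *Xbp1* and *Slc18a2* had no UMI in the 16 cells. The mitotic gene *Top2a* stood at 15.6 CPM in the members against 297 CPM, *Hes1* at 17.5 against 312 and *Ccnd1* at 108 against 1212. The 30 cells with 1 or 2 *Isl1* UMIs were closer to the members, with 53 of 3107 genes (1.71%) past 2-fold higher in the members and 38 (1.22%) lower. They stood at 15.2 CPM of *Ccer2* and 10.2 CPM of *Mfng*, against 180 and 78.8 CPM in the members, and at 66.0 CPM of *Pou4f3*, against 19.2 CPM.

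A subset of members carried *Eomes*, whose promoter is shown because the gene defined the subset.
Eomes promoter, chr9:118477939-118478238, plus strand: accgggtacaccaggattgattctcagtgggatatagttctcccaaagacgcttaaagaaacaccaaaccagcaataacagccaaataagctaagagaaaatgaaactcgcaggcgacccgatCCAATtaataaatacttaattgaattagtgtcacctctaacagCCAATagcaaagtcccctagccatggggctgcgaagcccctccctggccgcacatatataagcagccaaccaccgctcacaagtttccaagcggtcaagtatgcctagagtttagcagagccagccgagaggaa
The window, with the same source and scale as above, held 2 CCAAT matches and none of the other motifs. At least 2 *Eomes* UMIs were found in 50 of 708 members, or 7.06% (5.29 to 9.20%), with 1, 21 and 28 cells in the low, middle and high groups. After thinning to 8000 UMIs the number was 32. In these cells *Fst* (follistatin, which binds activins) stood at 80.2 CPM against 0.738 CPM in the other members and *Igf1* (insulin-like growth factor 1) at 142 against 5.17 CPM. *Lmo2* stood at 403 against 70.2 CPM and was found in 88.0% against 22.9% of cells. *Irx1*, *Synm* (synemin, a filament protein), *Lrfn5* and *Mast4* were also among the highest. *Barhl2*, a homeodomain factor, had no UMI in the 50 cells against 81.4 CPM and 54.9% of cells among the other members, and *Sst* stood at 6.07 against 163 CPM. *Isl1* itself stood at 452 against 876 CPM and *Pou4f1* at 80.2 against 204 CPM. The subset was defined from these values, so no test applies.

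**Figure D5:**
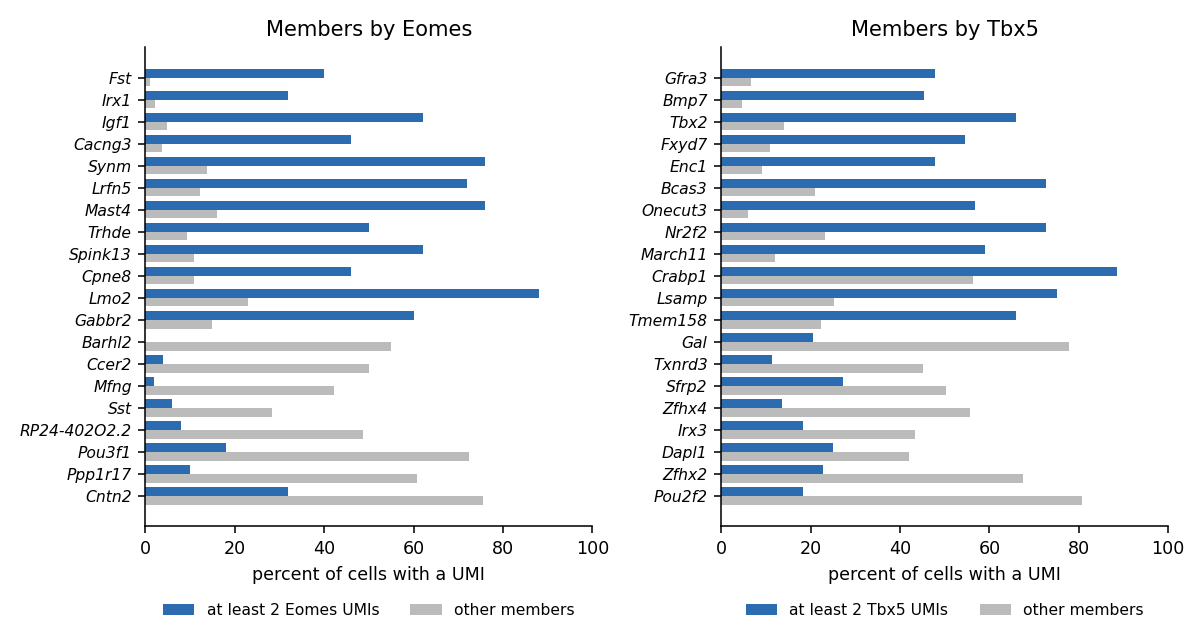
Bars give the percent of cells with a UMI of each gene, unthinned, in members with at least 2 UMIs of *Eomes* (left) or *Tbx5* (right), in blue, and in the other members, in grey. *Lmo2* is found in 88.0% of the *Eomes* cells against 22.9%, and *Crabp1* in 88.6% of the *Tbx5* cells against 56.3%.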

How the data were processed

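The study pooled embryonic day 14.5 retinas, sorted them by GFP and made 1 10x library per gate. The authors deposited filtered UMI counts per gene and cell, made with Cell Ranger 2.1.1 on mm10/GRCm38 per the labels. The GFP- library held 4445 cells and 46778924 UMIs (median 9936 per cell), and the GFP+ library 3728 cells and 16010591 UMIs (median 3906.5). Here 1 cell at or over a mitochondrial fraction of 0.25 was left out and no upper gene limit was set. Doublets were scored with Scrublet in scanpy 1.11.5 (expected rate 0.03) and kept. Counts were summed over the cells of a class and divided by the class total. Sums had 0.5 added for log2 ratios. Intervals are 95% exact Clopper-Pearson for shares, Poisson for CPM and conditional binomial for ratios, from scipy 1.17.1. TMM scaling was computed with edgeR 4.0.16. Progenitors had at least 8 UMIs of a set of progenitor genes that included *Sfrp2* and *Hes1*. Some genes are not reported here.

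Named genes were the rule's genes, the genes of 20 lists and, among genes with at least 50 CPM in either class, the 15 highest and 10 lowest ratios against the rest and 10 of each against the precursors and the *Isl1*-negative cells, leaving out genes of the rules. The members and lists were chosen with earlier results of these data known. Alternatives changed the gene limit, the depth, the CPM minimum, the scaling, doublets and the mitochondrial limit. The groups by *Sncg*, *Nefl* and *Rbpms* share, the *Eomes* and *Tbx5* subsets and the cells of low *Isl1* were chosen after seeing the data. Of the listed genes, *Scn2a* and *Nova2* matched no name in the files. The 3′ counts are not scaled by gene length, so levels were not ranked between genes. The comparison code was tested on simulated data.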

Additional observations from a re-analysis of the deposited data

Results flagged for a closer look

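The GFP+ library held cells that met the rule for the members. They were 4 of 3728 cells, or 0.107% (exact interval 0.0292 to 0.274%), and came from a library that no comparison above used. Their *Sncg* counts were 2, 67, 77 and 83 UMIs, their *Isl1* counts 7, 11, 16 and 21 and their *Gap43* counts 23, 27, 87 and 101. The cone gene *Gngt2* had 0, 0, 1 and 29 UMIs and *Otx2* 0, 0, 0 and 7. Each list runs from low to high, so its places do not mark the same cell. None shared a barcode with a GFP- cell, and *Lhx4* and *Sfrp2* had no UMI in any of them. What placed these cells in the GFP+ gate was not tested.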

How the results depend on the processing

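With 1 library per gate and embryos pooled, differences between embryos or sorts could not be measured, and the shares of cells with a factor depended on depth. The number of members was 708, 218 with the study's limit of 3500 genes and 441 when the rule was applied to cells thinned to 5000 UMIs. Genes past 2-fold numbered 991 against the rest, 625 against the *Isl1*-negative cells, 503 against the precursors and 242 between the high and low groups. With a minimum of 10 CPM the first 3 counts were 2702, 2360 and 1525. Against the *Isl1*-negative cells the count was 1461 with at most 3500 genes, 87 with the rule on thinned cells, 1148 with all cells thinned and, chosen after seeing the data, 91 with cells of 1 or 2 *Isl1* UMIs. Of the 625, 47.7% were higher in the members, against 64.1% with TMM scaling, 33.1% with thinned cells, 36.5% at 10 CPM and 28.5% with only the *Isl1*-negative cells of a sum of at least 10. TMM scaling moved the median log2 ratio by 0.05, 0.17 and 0.12 against the rest, the *Isl1*-negative cells and the precursors. Ranked by *Nefl* and *Rbpms* alone, 83 genes were past 2-fold between the high and low groups. Without Scrublet doublets the number of members was 682, and genes past 2-fold numbered 1039, 619, 521 and 234 in the same order. The median of the crossed and uncrossed projection list changed from 0.32 to -0.32 with at most 3500 genes, and that of the secreted signals from -0.13 to 0.27 with progenitors left out of the rest. Of 504 values for genes named against the rest, 422 kept their size within 1.5 times, 82 moved further and 0 reversed. No paired analysis was possible because each gate had 1 library.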

Other observations

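A second subset of the members carried *Tbx5*, a T-box factor of the dorsal retina. At least 2 *Tbx5* UMIs were found in 44 of 708 members, or 6.21% (exact interval 4.55 to 8.25%), with 4, 21 and 19 cells in the low, middle and high groups, and the number was 27 after thinning to 8000 UMIs. *Tbx2*, another dorsal T-box factor, stood at 150 CPM in these cells against 13.4 CPM in the other members. *Gfra3*, a co-receptor of the trophic ligand artemin, stood at 91.0 against 6.42 CPM, and *Bmp7*, a dorsal growth factor, at 54.0 against 4.14 CPM. Other genes of the dorsal to ventral axis were mixed. The dorsal retinoic acid enzyme *Aldh1a1* was higher, at 9.25 against 3.00 CPM with a ratio of 3.08 (1.05 to 7.55), and ventral *Ephb2* stood at 49.4 against 66.3 CPM. Dorsal *Tbx3* stood at 6.17 against 9.53 CPM, *Efnb1* at 6.17 against 7.77 and *Efnb2* at 12.3 against 14.8, and ventral *Vax2* at 157 against 142 CPM. *Crabp1*, which binds retinoic acid, stood at 5033 against 899 CPM, and *Nr2f2*, a nuclear receptor, at 201 against 25.3 CPM. *Gal* was 9.74-fold lower, at 55.5 against 541 CPM, and *Irx3* stood at 21.6 against 89.5 CPM. *Eomes* had no UMI in the 44 cells. The limit of 2 UMIs was chosen after the values had been seen, and the values are a description.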
